A study of Caenorhabditis elegans with 68 samples.

Results

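The response of mir-85(gcp109) larvae to the salt exposure of their mothers was read from 8 of the 68 samples of the series, which are all of the first-stage (L1) larvae that carry this strain label. The genotype is mir-85(gcp109) II in the Caenorhabditis elegans strain MHE339, a single strain in which the 3p sequence of the microRNA gene mir-85 was deleted by CRISPR editing. In 4 libraries the mothers had been exposed to 300 mM NaCl and in 4 to 50 mM NaCl, and each library came from a pool of larvae that had hatched without starvation. Libraries with the same replicate number were treated as a pair, and values below are in the order of replicates 1 to 4 or as the mean ± SD (n = 4 per level). Both levels carry the deletion, so the comparison is one of maternal salt within the mutant and not of mutant with wild type.

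Other larvae were set beside these to compare their responses. The allele mir-85(n4117) II in strain MT12999 and the wild type N2 sequenced with it, called WT, had 2 libraries per NaCl level. Larvae with the genotype mir-85(n4117)/ mir-85(n4117) from heterozygous parents of strain MHE324, called F1KO, had 3 libraries per level, and a later wild type N2 series had 5. Heterozygous larvae of heterozygous parents, called F1het and labelled like F1KO, had 3 per level. The difference of responses from gcp109 was tested for n4117, F1KO and the later N2, and not for WT or F1het. Of these, n4117 and WT share a set, and gcp109, F1KO and the later N2 each come from another, so that in comparisons with gcp109 strain and set cannot be told apart. Libraries of a group are labelled as biological replicates, and separate cultures are not named, so the p-values take in only the spread between libraries, which may be technical.

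MicroRNAs are short RNAs that guide an Argonaute protein to complementary sites, usually in 3′ untranslated regions, and lower the output of the bound transcript through pairing of their seed. The series asks whether microRNAs that mothers pass to their young through yolk shape the stress resilience of the progeny, and its labels name hrg-1, a heme importer of the intestine, as holding a mir-85 seed site. High salt draws water out of a worm, which answers by building up the compatible solute glycerol and by remodelling its collagen cuticle. The insulin pathway factor DAF-16 raises antioxidant genes such as sod-3. Of the genes named dod it lowers some, such as dod-24, and raises others, such as dod-3. The PMK-1 kinase pathway keeps up intestinal pathogen response genes.

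All levels are in TPM, the abundance of a transcript per length as a share of its library, which keeps no sequencing depth, so that no counting interval can be given and precision was judged from the spread between libraries. Replicates correlated at r = 0.941 to 0.981 at 50 mM and 0.925 to 0.980 at 300 mM on log2(TPM + 1). The markers unc-54 of muscle (2844 to 4133 TPM), myo-2 of the pharynx (328 to 644 TPM) and act-5 of the intestine (983 to 1569 TPM) were abundant in all 8 libraries. Some other markers of these tissues were low, among them phat-1 of the pharynx at up to 0.24 TPM and elt-7 of the intestine at 3.76 to 13.2 TPM. The sums of neuron markers were 2357 to 3685 TPM at 50 mM and 2260.4 to 3208 TPM at 300 mM. The 300 mM library of replicate 1 stood apart in adult transcripts. Its vitellogenins, the yolk proteins of the adult intestine, summed to 160.2 TPM against 1.41 to 3.32 TPM in the other 7 libraries, its sperm genes to 127.0 TPM against 2.75 to 11.2 TPM, and the adult cuticle collagen gene col-19 reached 15.7 TPM against at most 0.27 TPM at 50 mM. Markers of germ cells and maternal RNA summed to 34.2, 30.9, 26.0 and 46.1 TPM at 50 mM and 141.5, 41.7, 45.3 and 146 TPM at 300 mM, so that replicates 1 and 4 were high at 300 mM and replicates 2 and 3 were within the range of 50 mM. Pairs 1 and 4 were left out together in an alternative chosen after the data were seen. Replicates 1 and 2 also deviated together against 3 and 4 (r of deviations from the group means −0.335 to −0.483 across this divide), and the 100 genes highest in pairs 1 and 2 over 3 and 4 had a median transcript of 372 bases and the 100 lowest 150 bases, against 1298 over all genes tested. The pair term of the fit takes up such differences where they are alike at both levels. In bulk RNA from whole larvae, fewer cells of a type and less RNA per cell cannot be told apart.

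Transcripts of many classes differed between the maternal salt levels in gcp109 larvae. Of 14102 genes tested, 873 rose (6.19%) and 892 fell (6.33%), 12.5% in all, by limma's moderated test on log2(TPM + 1) with the replicate as a block (Benjamini-Hochberg adjusted p under 0.05, two-sided). The median log2 change was 0.77 among genes up and −0.52 among genes down, and 276 genes rose and 111 fell by at least 1 on the log2 scale. All genes called had the same sign in 4 of 4 pairs, as had 37.6% of all genes tested. The paired test favours such genes. The shares of sign and overlap and the medians by pair therefore describe the calls and are no further support for them. The 2 levels did not overlap for 455 of the genes up and 378 of the genes down, against 5.28% of all genes tested that were higher and 4.18% that were lower without overlap (9.46% together). The median change of genes up was 0.84, 0.64, 0.65 and 0.86 in pairs 1 to 4, and that of genes down −0.55, −0.52, −0.47 and −0.55. Without the replicate block 93 genes rose and 98 fell, all of them among the calls above. Leaving out 1 pair changed the number of calls by over 1.5 times for replicates 1 (266 up and 213 down), 2 (432 and 269) and 3 (353 and 258), and not for 4 (801 and 1043). Without replicates 1 and 4 there were 316 up and 282 down, of which 471 were among the calls with all pairs. Calls were followed for 83 genes that passed the test, which include pud-3, not described below. They do not include aqp-4 or genes named below only within a run of neighbours. Of the 83 genes, 54 kept their call with each pair left out in turn and 38 without the block. Only 37 kept it in all of these fits. A call said below to be lost is one of the 29 lost with a pair left out, with the replicates whose removal ended it. Losses without the block are given below for hrg-1 and hsp-12.3 alone, so a gene with no mark may still have lost its call in that fit. Among such genes limma's adjusted p without the block was 0.547 for nlp-28, 0.317 for cnc-11, 0.251 for ahcy-1 and 0.181 for glh-1.

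**Figure D1:**
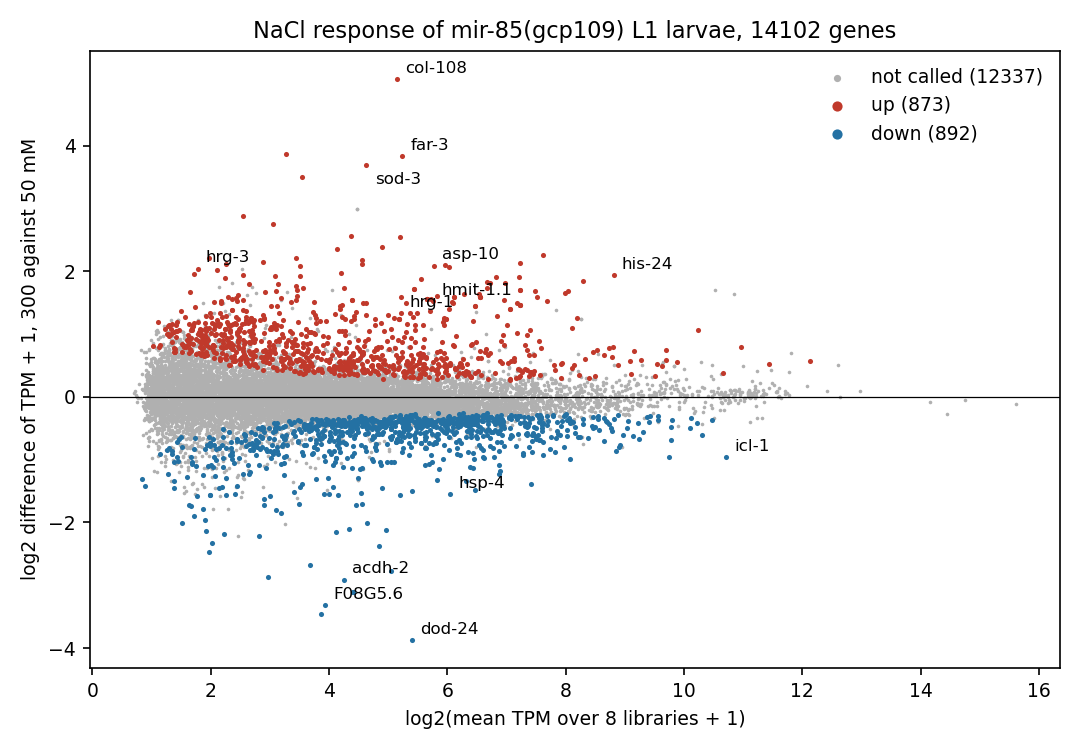
Each point is 1 of 14102 genes, with the log2 of its mean TPM + 1 over the 8 libraries on the horizontal axis and its log2 difference of TPM + 1 between 300 and 50 mM on the vertical axis. The 873 genes up and 892 genes down are coloured, and col-108 (log2 5.06) and dod-24 (log2 −3.87) lie at the ends.

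Heme genes were the group in which the mir-85 site gene hrg-1 lies, and 3 of its 7 tested members rose and 0 fell, where 6.19% of all genes tested rose and 6.33% fell. The importer gene hrg-1 (chrX:4008057-4016221 on the minus strand of WBcel235) was at 16.1, 17.01, 18.4 and 28.5 TPM at 50 mM and 48.3, 34.7, 79.9 and 48.5 TPM at 300 mM. All 4 libraries at 300 mM lay above the highest at 50 mM, and the pairs rose by 1.53, 0.99, 2.06 and 0.74 on the log2 scale (log2 1.33, SE 0.21, adjusted p = 0.0126, lost without replicate 1 at adjusted p = 0.0562). Without the replicate block its adjusted p was 0.0536. Its neighbour mop-25.1 overlaps it on the opposite strand and, with reads possibly not separated by strand, stood at 131, 126, 154 and 127 TPM at 50 mM and 119.5, 105, 146 and 113 TPM at 300 mM. That gene was lower at 300 mM in every pair and did not pass the test (log2 −0.16, SE 0.07, adjusted p = 0.168), so the 2 overlapping genes had changes of opposite sign.

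The gene of HRG-7, a secreted aspartic protease that signals heme status between the intestine and neurons, is listed as asp-10 and was at 19.2, 18.5, 16 and 26.2 TPM at 50 mM and 82.2, 74.8, 85.3 and 108.2 TPM at 300 mM. Its levels rose in each pair by a similar amount (log2 2.09, SE 0.09, adjusted p = 0.000237), though the gene C15C8.7 overlaps it on the other strand. The secreted heme chaperone gene hrg-3, which carries maternal heme to embryos, was near the floor of detection at 50 mM, with 0.12, 0.36, 0.26 and 0.41 TPM at 50 mM and 7.83, 4.38, 2.58 and 3.54 TPM at 300 mM. The change of hrg-3 was 2.04 on the log2 scale (SE 0.27, adjusted p = 0.00763), with F58E6.11 on the opposite strand. Levels of hrg-2 (5.4 ± 2.01 to 6.29 ± 2.44 TPM, adjusted p = 0.313), hrg-6 (0.97 ± 0.322 to 2.13 ± 1.06 TPM, 0.108) and the heme exporter gene mrp-5 (35.5 ± 4.92 to 44.3 ± 9.21 TPM, 0.0934) had higher means at 300 mM and overlapping libraries. The remaining tested member, R186.1, named after its values were seen, had a lower mean at 300 mM (11.04 ± 0.714 to 7.95 ± 1.75 TPM, log2 −0.45, adjusted p = 0.0561). The heme list without the replicate block had 2 up and 0 down, and without replicates 1 and 4 3 up and 0 down. The host gene of mir-85, F49E12.8, was low at 6.73, 5.06, 3.69 and 2.43 TPM at 50 mM and 4.16, 6.21, 3.99 and 1.17 TPM at 300 mM and did not pass (log2 −0.23, SE 0.20, adjusted p = 0.488). It does not check the deletion, which removed the 3p sequence alone, and the table used here gives no value for mir-85.

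Among the osmolyte genes the inositol transporter genes hmit-1.1 and hmit-1.2 and the aquaporin gene aqp-4 rose. The third inositol transporter gene, hmit-1.3, had a change of −0.02 on the log2 scale (adjusted p = 0.917). Levels of hmit-1.1, a myo-inositol transporter that worms induce in high salt, were 24.2, 27.8, 26.6 and 27.1 TPM at 50 mM and 65.2, 67.6, 73.2 and 114 TPM at 300 mM. Libraries at 50 mM were close to each other and every 300 mM library stood above them, with replicate 4 highest (log2 1.53, SE 0.13, adjusted p = 0.00232). Its paralog hmit-1.2 was at 56.4, 54.7, 42.8 and 34.9 TPM at 50 mM and 83.2, 86.3, 97.5 and 103 TPM at 300 mM and the levels did not overlap (log2 0.97, SE 0.17, adjusted p = 0.0165, lost without replicate 3 at adjusted p = 0.0761). The glycerol synthesis gene gpdh-1, a standard marker of osmotic stress, was at 2.77, 3.14, 2.98 and 3.03 TPM at 50 mM and 4.96, 4.59, 4.20 and 9.72 TPM at 300 mM. Although all 300 mM libraries were above all at 50 mM, this change missed the threshold (log2 0.72, SE 0.20, adjusted p = 0.0608). It was smaller without replicate 4 (log2 0.49, adjusted p = 0.0849) and passed with libraries rescaled to a common median (0.0478). The aquaporin genes, whose proteins pass water or glycerol, went down where they were called apart from aqp-4. Levels of aqp-7 fell from 754 ± 139 to 507 ± 52.9 TPM (log2 −0.56, adjusted p = 0.017, lost without replicate 1, 2 or 3 at adjusted p up to 0.0859) and aqp-8 from 94.1 ± 28.6 to 62.6 ± 29.6 TPM (log2 −0.63, adjusted p = 0.0223, lost without replicate 1, 2 or 3 at adjusted p up to 0.0983), with levels that overlapped between the groups but moved down in all 4 pairs. In all the osmolyte list had 3 of 14 tested members up and 2 down. The cuticle-associated signal gene osm-11, whose loss turns on the osmotic response, fell from 403 ± 28.2 to 259 ± 50.8 TPM. The change of osm-11 was −0.66 on the log2 scale (SE 0.12, adjusted p = 0.0209, lost without replicate 1, 2 or 3 at adjusted p up to 0.0869). The regulators around it gave 1 of 14 tested members up and 1 down.

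Antioxidant genes rose in part. Levels of sod-3, the manganese superoxide dismutase of mitochondria and a standard DAF-16 target, were 3.39, 2.77, 3.01 and 1.32 TPM at 50 mM and 50.7, 35.0, 52.2 and 41.9 TPM at 300 mM. Every 300 mM library held more than the highest value at 50 mM (log2 3.69, SE 0.16, adjusted p = 0.000237, with C08A9.6 on the opposite strand). The cytosolic superoxide dismutase gene sod-5 was at 0.74, 1.36, 1.62 and 0.69 TPM at 50 mM and 14, 7.70, 14.1 and 18.4 TPM at 300 mM. The change of sod-5 was 2.76 on the log2 scale (SE 0.27, adjusted p = 0.00286). Levels of the catalase gene ctl-3 went from 11.52 ± 3.25 to 35.9 ± 15.9 TPM. The change of ctl-3 was 1.49 on the log2 scale (SE 0.24, adjusted p = 0.0146, lost without replicate 1 at adjusted p = 0.0592). The peroxisomal catalase gene ctl-2 rose slightly, from 73.9 ± 11.3 to 92.5 ± 14.3 TPM (log2 0.32, adjusted p = 0.0266, lost without replicate 1, 2 or 3 at adjusted p up to 0.125). In the whole list of superoxide dismutases, catalases and peroxiredoxins 4 of 11 members rose and 0 fell, and the sum of its TPM overlapped between levels at 1449.5 to 1641 TPM at 50 mM and 1442 to 1827 TPM at 300 mM.

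Genes known to be raised by DAF-16 moved both ways, with 5 of 17 tested members up and 4 down. Beside sod-3, the late embryogenesis abundant protein gene lea-1 rose from 172 ± 27.2 to 415 ± 94.1 TPM. The change of lea-1 was 1.25 on the log2 scale (SE 0.17, adjusted p = 0.00749), with acl-2 on the opposite strand. The small heat shock protein gene hsp-12.3 had a rise from 41.9 ± 18.6 to 73.8 ± 38.8 TPM with overlapping levels (log2 0.73, adjusted p = 0.00843, and 0.568 without the block). Against these, the lysozyme gene lys-7 fell and was at 23.1, 19.4, 25.06 and 23.6 TPM at 50 mM and 10.3, 4.83, 8.19 and 6.28 TPM at 300 mM. The change of lys-7 was −1.54 on the log2 scale (SE 0.14, adjusted p = 0.00237). The desaturase gene fat-5 fell from 6.88 ± 1.06 to 3.76 ± 2.35 TPM (log2 −0.84, adjusted p = 0.0474, lost without replicate 1, 3 or 4 at adjusted p up to 0.166), and icl-1 fell as given with the metabolic genes. Of the genes lowered by DAF-16, 4 of 5 tested fell and 0 rose. Other large rises were those of the flavin monooxygenase gene fmo-2, at 5.31, 3.78, 4.78 and 5.33 TPM at 50 mM and 25.06, 30.1, 56.3 and 28.03 TPM at 300 mM (log2 2.56, SE 0.21, adjusted p = 0.00205), of far-3, whose protein binds fatty acids and retinol, at 8.22, 2.87, 3.64 and 2.13 TPM at 50 mM and 69.2, 54.97, 99.0 and 53.8 TPM at 300 mM (log2 3.84, SE 0.23, adjusted p = 0.000953, with far-5 on the opposite strand), and of the glutathione S-transferase gene gst-20 from 82.0 ± 26.0 to 161 ± 43.2 TPM (log2 0.98, adjusted p = 0.013, lost without replicate 1 or 3 at adjusted p up to 0.0649).

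Detoxification families had calls in both directions. Glutathione S-transferases had 7 of 42 tested members up and 4 down, UDP-glucuronosyltransferases 8 of 54 tested members up and 8 down and cytochromes P450 8 of 43 tested members up and 6 down, with family medians of 0.17, −0.06 and −0.004 on the log2 scale against −0.02 over all genes tested.

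**Figure D2:**
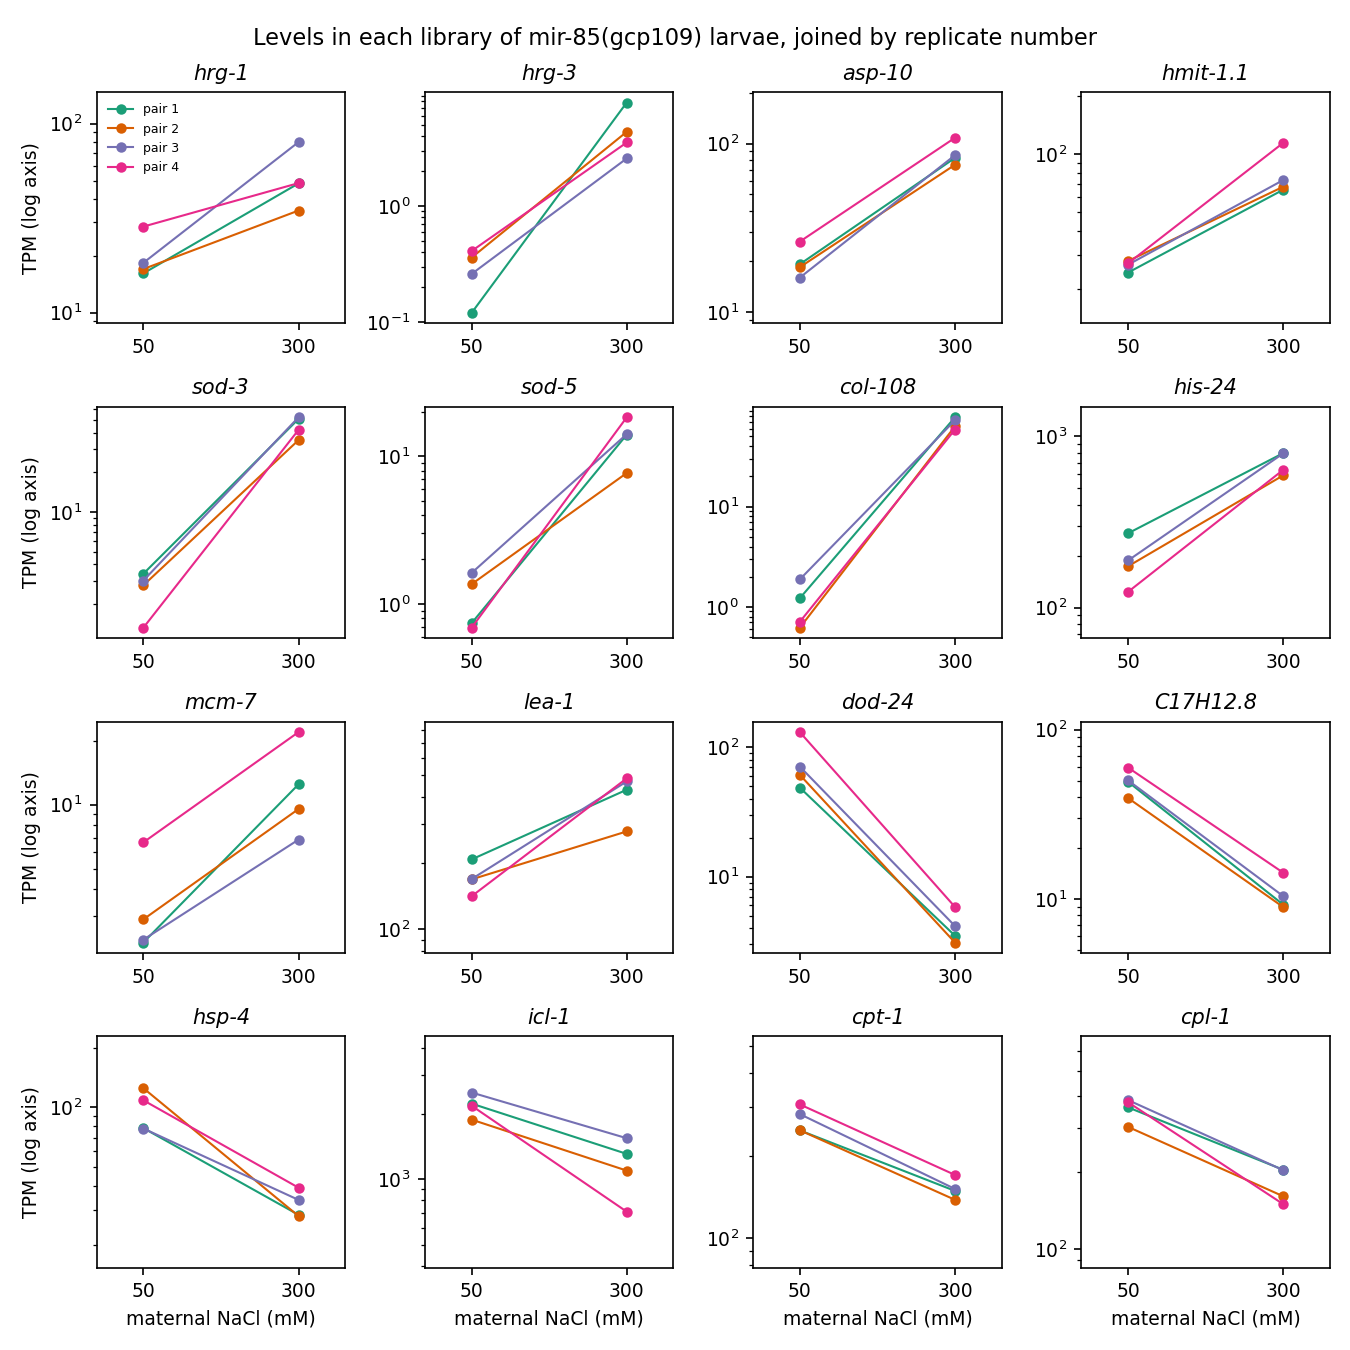
TPM on log axes of 16 genes in the 8 gcp109 libraries, against the maternal NaCl in mM, with lines joining libraries of the same replicate number. The first 10 genes rose and the last 6, from dod-24 to cpl-1, fell in each of the 4 pairs.

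Collagens, the structural proteins of the cuticle, mostly rose where called, with 28 of 71 tested members up and 1 down and a median of 0.51. The gene col-108 had the largest change on the log2(TPM + 1) scale, at 1.22, 0.62, 1.88 and 0.71 TPM at 50 mM and 77.7, 63.1, 72.5 and 58.6 TPM at 300 mM. The change of col-108 was 5.06 on the log2 scale (SE 0.13, adjusted p = 4.46e-05). It was almost silent at 50 mM and similar in all 4 libraries at 300 mM. Levels of col-146 were 14.04, 11.9, 8.99 and 5.26 TPM at 50 mM and 78.7, 64.8, 64.7 and 39.1 TPM at 300 mM (log2 2.54, SE 0.10, adjusted p = 0.000189), col-145 rose from 7.995 ± 2.33 to 37.3 ± 6.74 TPM (log2 2.11) and col-159 from 24.4 ± 5.73 to 103.7 ± 9.82 TPM (log2 2.07). Summed over all collagens TPM were 38679, 36408, 23873 and 21328 TPM at 50 mM and 48730.0, 45058, 32877 and 43037 TPM at 300 mM, higher at 300 mM in each pair although the groups overlapped. The list had 11 up and 0 down without the replicate block and 18 up and 0 down without replicates 1 and 4. Of the 12 hypodermis markers 4 could be tested (elt-1, elt-3, lin-26 and the collagen gene sqt-3), and 0 were called by limma, with 0 at an unadjusted p under 0.05. The transcription factor genes elt-3 and lin-26 were at 23.0 to 94.2 and 41.0 to 59.7 TPM over the 8 libraries, while the collagen markers dpy-7, rol-6 and sqt-1 were below 1 TPM in each of them. Genes of the molting cycle had 1 of 22 tested members up and 2 down.

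Most histone genes rose, with 60 of 71 tested members up and 0 down and a median of 1.52. Together they summed to 4343, 3822, 3645 and 5050.2 TPM at 50 mM and 10778, 7960.2, 7123 and 12062 TPM at 300 mM, with every 300 mM library above all at 50 mM. The linker histone gene his-24 was at 272, 174, 188 and 123 TPM at 50 mM and 799, 592, 796 and 638 TPM at 300 mM. The change of his-24 was 1.94 on the log2 scale (SE 0.13, adjusted p = 0.00135). Levels of the core histone gene his-62 were 40.9, 33.0, 29.2 and 79.1 TPM at 50 mM and 203, 101, 101 and 315 TPM at 300 mM (log2 1.90, SE 0.12, adjusted p = 0.00107), and those of his-32 rose from 2.88 ± 1.22 to 16.9 ± 5.99 TPM (log2 2.20). Most core histone copies are nearly identical in sequence and their reads may be shared, so the 60 calls are not independent. Calls without the block fell to 6 up and 0 down and were 50 up and 0 down without replicates 1 and 4.

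The list of DNA replication and cell cycle genes had 28 of 49 tested members up and 0 down and a median of 0.72. The replicative helicase gene mcm-7 was at 2.25, 2.89, 2.32 and 6.65 TPM at 50 mM and 12.5, 9.54, 6.85 and 21.9 TPM at 300 mM. The change of mcm-7 was 1.58 on the log2 scale (SE 0.15, adjusted p = 0.00302), with F32D1.3 on the opposite strand. Replicate 4 was the highest library at both levels and replicate 3 the lowest at 300 mM. The ribonucleotide reductase gene rnr-1 rose from 11.8 ± 4.68 to 29.0 ± 8.73 TPM (log2 1.25), the sliding clamp gene pcn-1 from 19.5 ± 6.204 to 47.3 ± 11.49 TPM (log2 1.25), the mitotic kinase gene plk-1 from 6.73 ± 2.22 to 18.6 ± 8.01 TPM (log2 1.298) and the topoisomerase gene top-2 from 6.98 ± 2.63 to 18.5 ± 8.42 TPM (log2 1.25), all with adjusted p of 0.00336 or below.

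Germ cell and maternal RNA genes moved too, with 10 of 22 tested members up and 0 down. The P granule helicase gene glh-1 was at 5.12, 3.24, 1.59 and 7.91 TPM at 50 mM and 19, 8.80, 6.80 and 26.99 TPM at 300 mM (log2 1.54, SE 0.12, adjusted p = 0.00197), and pgl-1, another P granule component, at 2.40, 2.08, 1.3 and 5.80 TPM at 50 mM and 12.97, 4.06, 3.99 and 24.7 TPM at 300 mM. The change of pgl-1 was 1.45 on the log2 scale (SE 0.24, adjusted p = 0.0152, lost without replicate 1 or 3 at adjusted p up to 0.0579). The RNA-binding regulator gld-1 of the adult germ line was at 1.15, 0.78, 0.33 and 1.55 TPM at 50 mM and 15.3, 2.07, 2.46 and 15.2 TPM at 300 mM, where replicates 1 and 4 at 300 mM held 15.2 to 15.3 TPM and replicates 2 and 3 2.07 to 2.46 TPM (log2 1.94, SE 0.37, adjusted p = 0.0224, lost without replicate 1 or 3 at adjusted p up to 0.0797). The yolk receptor gene rme-2 of oocytes showed the same split, at 1, 0.54, 0.54 and 2.06 TPM at 50 mM and 10.7, 1.33, 2.45 and 9.71 TPM at 300 mM. The change of rme-2 was 1.53 on the log2 scale (SE 0.32, adjusted p = 0.0279, lost without replicate 1, 3 or 4 at adjusted p up to 0.0873). The RNA helicase gene cgh-1 rose from 74.2 ± 4.65 to 124 ± 23.5 TPM (log2 0.71, lost without replicate 1 or 3 at adjusted p up to 0.0793). Among the 78 cytosolic ribosomal protein genes tested 1 was called, rpl-11.1, which rose from 49.2 ± 18.6 to 121 ± 60.2 TPM (log2 1.21) and at 300 mM was highest in replicates 1 and 4. Without replicates 1 and 4 the germ cell list had 1 up and 0 down and the replication list 10 up and 0 down. The sums of germ cell markers given above were high at 300 mM in replicates 1 and 4, and those of yolk and sperm transcripts in replicate 1 alone. Their part in the changes of these lists was not tested. In pairs 2 and 3 alone histones summed to 7960.2 and 7123 TPM at 300 mM against 3822 and 3645 TPM at 50 mM. Proteasome subunits had 7 of 32 tested members up and 0 down (median 0.28), and 0 up and 0 down without replicates 1 and 4.

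**Figure D3:**
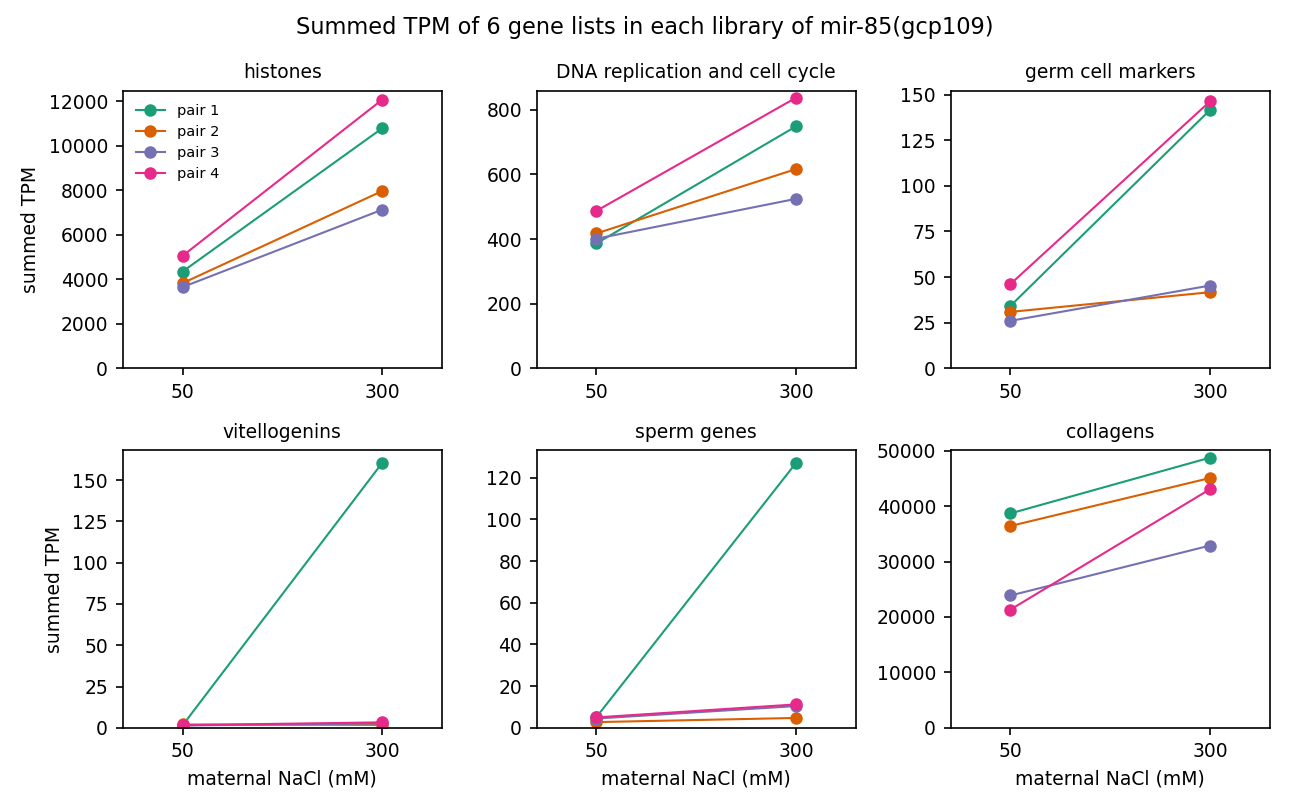
Summed TPM of 6 gene lists against maternal NaCl in mM, with 1 line per pair of gcp109 libraries and axes from 0. Histones, replication genes and collagens rose in each pair, germ cell markers rose most in pairs 1 and 4, and vitellogenins and sperm genes stood out in replicate 1 at 300 mM.

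Intestinal genes of the pathogen response held the largest falls. Of the list 10 of 25 tested members fell and 3 rose, with a median of −0.42. The gene dod-24 was at 48.8, 61.3, 71.0 and 131 TPM at 50 mM and 3.50, 3.10, 4.16 and 5.84 TPM at 300 mM (log2 −3.87, SE 0.14, adjusted p = 0.000178), and its neighbour dod-22 at 15.8, 22.1, 26.7 and 39.1 TPM at 50 mM and 1.23, 1.06, 1.57 and 1.49 TPM at 300 mM. The change of dod-22 was −3.46 on the log2 scale (SE 0.18, adjusted p = 0.000503). Both were lower in every 300 mM library than in any at 50 mM. Levels of F08G5.6, used as a reporter gene of intestinal immunity, were 25.5, 24.9, 29.1 and 28.03 TPM at 50 mM and 1.56, 1.86, 1.51 and 2.37 TPM at 300 mM. The change of F08G5.6 was −3.31 on the log2 scale (SE 0.12, adjusted p = 0.000178). The gene C17H12.8 was at 49.2, 39.4, 50.1 and 59.6 TPM at 50 mM and 9.25, 8.95, 10.4 and 14.3 TPM at 300 mM (log2 −2.12, SE 0.09, adjusted p = 0.000237) and F55G11.2 at 63.3, 59.6, 48.3 and 56.3 TPM at 50 mM and 7.33, 5.87, 7.58 and 9.35 TPM at 300 mM. The change of F55G11.2 was −2.77 on the log2 scale (SE 0.13, adjusted p = 0.000425). T24B8.5, a PMK-1 target that encodes a ShK-like peptide, fell from 20.99 ± 9.08 to 2.55 ± 1.55 TPM. The change of T24B8.5 was −2.68 on the log2 scale (SE 0.32, adjusted p = 0.00548). A run of 5 neighbouring genes on chromosome IV from 12940106 to 12969289, dod-24, F55G11.7, F55G11.8, dod-22 and F55G11.2, all fell, with changes of −1.58 to −3.87 on the log2 scale.

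The genes dod-17 and dod-19 fell less, from 115 ± 22.6 to 58.2 ± 15.3 TPM (log2 −0.99, adjusted p = 0.00159) and from 228 ± 23.4 to 148 ± 60.5 TPM (log2 −0.69, adjusted p = 0.0291, lost without replicate 1, 2 or 3 at adjusted p up to 0.113). C-type lectins, secreted or membrane proteins with a sugar-binding domain, had 6 of 85 tested members up and 27 down. Levels of clec-209, which holds values identical to those of its copy F56A4.2, were 25.9, 25.7, 39.7 and 56.8 TPM at 50 mM and 5.64, 1.51, 2.68 and 3.92 TPM at 300 mM. The change of clec-209 was −3.11 on the log2 scale (SE 0.26, adjusted p = 0.00215). Levels of clec-67 fell from 35.2 ± 15.4 to 9.80 ± 3.12 TPM (log2 −1.704) and those of clec-265 from 53.7 ± 15.2 to 17.9 ± 7.59 TPM (log2 −1.57). The neighbours clec-62 to clec-66 on chromosome II all fell as well, with changes of −0.46 to −0.81. Lysozymes and saposins, the antibacterial enzymes and peptides of the gut, had 1 of 26 tested members up and 5 down, with lys-2 going from 66.3 ± 27.4 to 30.4 ± 11.2 TPM (log2 −1.08) beside lys-7. The pathogen response list had 0 up and 8 down without the block and 1 up and 11 down without replicates 1 and 4, and the lectin list 0 up and 7 down without the block and 2 up and 16 down without those replicates.

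Epidermal and neural peptide genes gave a mixed picture, with 9 up and 11 down of 63 tested nlp and antimicrobial peptide genes. The epidermal antimicrobial peptide gene nlp-28 was at 260.2, 173, 81.9 and 62.1 TPM at 50 mM and 403, 275, 143 and 127 TPM at 300 mM (log2 0.78, SE 0.09, adjusted p = 0.00427), and pairs differed from each other by more than the NaCl levels did. Levels of cnc-11, of the caenacin family, were 22.7, 41.0, 8.43 and 5.56 TPM at 50 mM and 179, 176, 43.6 and 13.4 TPM at 300 mM. The change of cnc-11 was 2.09 on the log2 scale (SE 0.26, adjusted p = 0.00609). FMRFamide-like neuropeptide genes had 0 of 30 tested members up and 5 down, among them flp-8 (51.8 ± 46.4 to 34.0 ± 31.3 TPM, log2 −0.65, lost without replicate 1 or 3 at adjusted p up to 0.0845) and flp-17 (206 ± 63.8 to 146 ± 41.8 TPM, log2 −0.48, lost without replicate 1, 2 or 3 at adjusted p up to 0.0869). Of 11 neuron markers 0 had a positive change and 1 fell, with a median of −0.19 beside the neuropeptide median of −0.21, and the part of this shift in the neuropeptide result was not tested. Among 9 tested pharynx markers 8 had a negative and 1 a positive change, and 1 was called down (median −0.17).

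Genes of fat breakdown were mostly not called, with 1 of 51 tested members up and 17 down and a median of −0.24. The carnitine palmitoyltransferase gene cpt-1, which moves fatty acids into mitochondria, was at 247, 247, 283 and 307 TPM at 50 mM and 149, 138, 151 and 170.1 TPM at 300 mM. The change of cpt-1 was −0.83 on the log2 scale (SE 0.07, adjusted p = 0.00197). The acyl-CoA dehydrogenase gene acdh-2 was at 31.01, 34.3, 45.8 and 19.99 TPM at 50 mM and 3.49, 4.60, 2.66 and 2.78 TPM at 300 mM (log2 −2.91, SE 0.20, adjusted p = 0.00135) and acdh-10 at 122, 118, 131 and 149 TPM at 50 mM and 69.3, 67.0, 60.04 and 66.5 TPM at 300 mM. The change of acdh-10 was −0.97 on the log2 scale (SE 0.09, adjusted p = 0.0025). For these 3 genes no library at 300 mM reached the lowest at 50 mM. The hydratase gene ech-9 fell from 12.2 ± 1.91 to 4.66 ± 1.42 TPM (log2 −1.25), and acdh-1, a propionate shunt gene that vitamin B12 represses, from 616 ± 216 to 350.4 ± 71.0 TPM (log2 −0.77, lost without replicate 3 at adjusted p = 0.0596). The desaturase gene fat-2, which starts the path to polyunsaturated fats, was at 586, 515, 611 and 719 TPM at 50 mM and 344, 322, 340.4 and 388 TPM at 300 mM. The change of fat-2 was −0.79 on the log2 scale (SE 0.07, adjusted p = 0.00232).

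The glyoxylate cycle gene icl-1 encodes the enzyme that lets fat be turned into sugar and was abundant, at 2225, 1879, 2501 and 2176 TPM at 50 mM and 1307, 1095, 1543 and 709.6 TPM at 300 mM. The change of icl-1 was −0.96 on the log2 scale (SE 0.16, adjusted p = 0.0158, lost without replicate 1 at adjusted p = 0.0508). Replicate 4 was the lowest at 300 mM. Pyruvate carboxylase pyc-1 fell from 679 ± 102 to 444 ± 104.5 TPM (log2 −0.63, lost without replicate 1 at adjusted p = 0.0579) and fructose bisphosphatase fbp-1 from 508 ± 63.1 to 364 ± 81.6 TPM (log2 −0.50, lost without replicate 1, 2 or 3 at adjusted p up to 0.086). In all, the list of glyoxylate cycle, gluconeogenesis and trehalose genes had 1 of 22 tested members up and 6 down. That of the propionate and methionine cycle had 1 of 23 tested members up and 9 down, and ahcy-1 fell from 1521 ± 369.6 to 996 ± 239 TPM (log2 −0.61). Without replicates 1 and 4 the first list had 1 up and 1 down and the second 0 up and 5 down. Without the block limma called 0 members of either. AMP-activated kinase is the energy sensor that shuts down costly synthesis. Its catalytic subunit gene aak-2 fell from 161 ± 20.2 to 127 ± 22.9 TPM (log2 −0.35, lost without replicate 1, 2 or 3 at adjusted p up to 0.16, with mec-4 on the opposite strand) and aakg-1 from 171 ± 9.82 to 129 ± 19.9 TPM (log2 −0.41, lost without replicate 1, 2 or 3 at adjusted p up to 0.112), while aakg-5 rose from 23.1 ± 0.881 to 35.8 ± 7.44 TPM (log2 0.59, lost without replicate 1 or 3 at adjusted p up to 0.118).

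Chaperones of the endoplasmic reticulum were mostly not called, with 0 of 24 tested members up and 7 down. The BiP gene hsp-4, a standard readout of the unfolded protein response, was at 78.4, 125, 78.0 and 108.6 TPM at 50 mM and 28.4, 28.04, 33.9 and 39.1 TPM at 300 mM. The change of hsp-4 was −1.55 on the log2 scale (SE 0.15, adjusted p = 0.00293). Levels of xbp-1, the factor that drives it, fell from 357 ± 44.7 to 267 ± 54.3 TPM (log2 −0.43, lost without replicate 1, 2 or 3 at adjusted p up to 0.0779) and those of the disulfide isomerase gene pdi-2 from 306 ± 28.5 to 234.8 ± 22.6 TPM (log2 −0.38, lost without replicate 1, 2 or 3 at adjusted p up to 0.112). The choline kinase gene ckb-2, another target of the response, fell from 8.33 ± 2.73 to 4.24 ± 0.472 TPM (log2 −0.79, lost without replicate 1, 2 or 3 at adjusted p up to 0.0817). The list had 0 up and 1 down without replicates 1 and 4, and 0 up and 1 down without replicate 1 alone. Chaperones of the cytosol and mitochondria had 2 of 36 tested members up and 2 down. Among the proteases the cathepsin L gene cpl-1 was at 361, 302, 385 and 378 TPM at 50 mM and 205, 161, 204 and 149.9 TPM at 300 mM (log2 −0.99, SE 0.10, adjusted p = 0.00313), and the aspartyl protease gene asp-14 at 119.3, 107, 116 and 177 TPM at 50 mM and 46.0, 40.3, 37.6 and 58.9 TPM at 300 mM. The change of asp-14 was −1.48 on the log2 scale (SE 0.08, adjusted p = 0.000503). Of 11 intestine markers 3 rose and 1 fell, the latter cpl-1, and elt-2, the main intestinal transcription factor, rose from 16.9 ± 1.44 to 26.0 ± 3.30 TPM (log2 0.59, lost without replicate 1 or 3 at adjusted p up to 0.0865), while the esterase gene ges-1 went from 13.5 ± 1.78 to 19.1 ± 2.78 TPM (log2 0.47, lost without replicate 1, 2, 3 or 4 at adjusted p up to 0.146).

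Nuclear hormone receptor genes, a family of ligand-bound transcription factors, had 3 of 197 tested members up and 27 down and a median of −0.13. Levels of nhr-112 fell from 9.40 ± 1.53 to 3.93 ± 1.68 TPM (log2 −1.14) and nhr-115 from 14.1 ± 2.79 to 7.86 ± 1.12 TPM (log2 −0.76). Without the block 1 up and 0 down were called, and without replicates 1 and 4 1 up and 1 down. Cytosolic ribosomal protein genes had a median of 0.04, and of 12 mitochondrial genome genes 0 were called by limma (median −0.24), with 6 at an unadjusted p under 0.05.

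**Figure D4:**
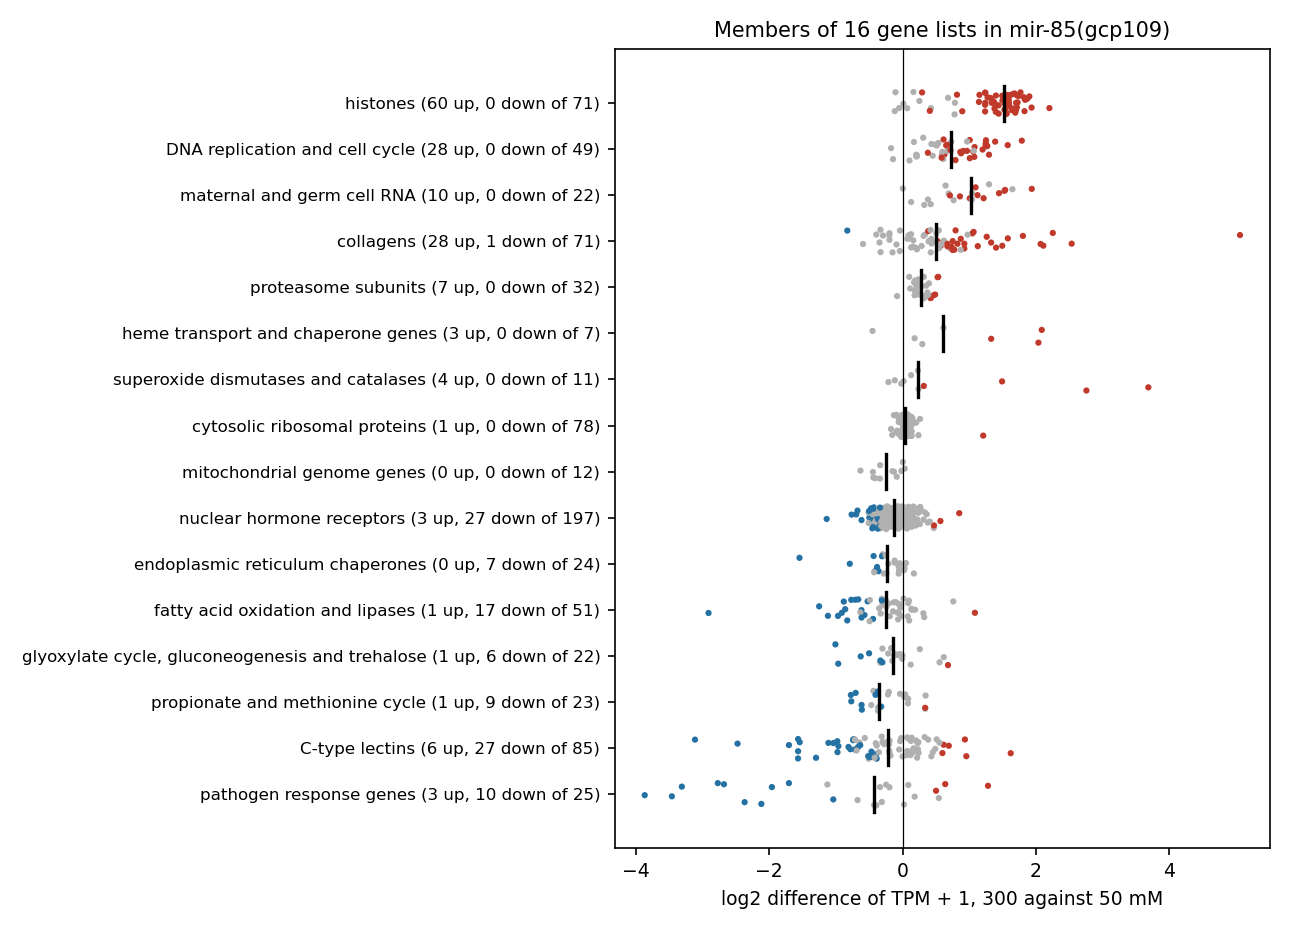
Log2 difference of TPM + 1 between 300 and 50 mM for each tested member of 16 gene lists in gcp109, with genes up in red, genes down in blue, others in grey and the list median as a black bar. Histones lie to the right with a median of 1.52, and pathogen response genes reach from −3.87 upward.

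Among genes known by a sequence name alone, 338 rose and 458 fell, which is 38.7% of the genes up and 51.3% of the genes down against 52.6% of all genes tested. The largest rises among them included D1086.9, at 0.2, 0.22, 0.09 and 0.05 TPM at 50 mM and 14.9, 6.86, 23.2 and 23.7 TPM at 300 mM (log2 3.86, SE 0.32, adjusted p = 0.0021), and C37A5.5, at 0.67, 2.27, 0.45 and 0 TPM at 50 mM and 37.0, 23.9, 12.0 and 9.56 TPM at 300 mM. The change of C37A5.5 was 3.50 on the log2 scale (SE 0.26, adjusted p = 0.00153). Levels of H39E23.3 were 0.2, 0.06, 0 and 0.02 TPM at 50 mM and 23.4, 9.75, 2.45 and 3.12 TPM at 300 mM. The change of H39E23.3 was 2.87 on the log2 scale (SE 0.43, adjusted p = 0.011). These genes were at or near 0 at 50 mM, so their fold change depends on the pseudocount. The gene T23F2.4 was at 14.5, 11.14, 6.64 and 2.62 TPM at 50 mM and 51.8, 36.4, 21.1 and 86.5 TPM at 300 mM (log2 2.38, SE 0.50, adjusted p = 0.0295, lost without replicate 1, 2 or 3 at adjusted p up to 0.0754), and clx-1 rose from 0.343 ± 0.394 to 5.51 ± 3.27 TPM (log2 2.21).

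By chromosome, 7.68% of tested genes rose and 7.62% fell on V, and 6.85% and 7.34% on IV. On X 3.96% rose and 6.24% fell. Runs of adjacent genes called in the same direction were led by histone clusters, with 11 genes up from his-15 to his-43 on chromosome II (13818371 to 13827709) and 8 genes up from his-28 to his-18 on V (8889488 to 8898539). The median longest transcript was 1415 bases for genes up and 1272 for genes down, against 1298 over all genes tested. Protein-coding genes made up 96.1% of genes up and 95.7% of genes down (90.6% of genes tested), and 20.1% of calls overlap a gene on the opposite strand (21% of genes tested).

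Within each of these strains alone limma called 1.06% of 13928 genes up and 1.02% down in N2, and 65 up (0.426%) and 49 down (0.321%) of 15270 without its 3 libraries in doubt. It called 0 (0.0%) in n4117, WT and F1KO, where 1485, 1411 and 3057 genes had an unadjusted p under 0.05. Tests of the difference between responses separated gcp109 from F1KO but not from n4117 or N2. Against n4117, 0 of 15833 genes differed (0.0%) by limma, with 1183 at an unadjusted p under 0.05, and against N2 0 of 15567 (0.0%), with 501 at that level. Without replicate 1 of n4117 at both levels 68 responses were higher and 15 lower, with the 1 remaining n4117 library of each level assumed to vary like the others. With 2 libraries per level in n4117 and 3 N2 libraries in doubt at 300 mM (replicates 1, 3 and 5, rich in sperm transcripts or poorly correlated), a count of 0 does not show that the responses were alike. Without those N2 libraries 1 of 16248 responses was lower (0.00615%) and 0 higher. The genes called in gcp109 had the same sign in n4117 for 94.9% of those up and 86.0% of those down, where 66.4% of all genes tested in both had the same sign. In N2 without the doubtful libraries these shares were 92.8% and 95.7% (75.5% of all genes), and in WT 90.9% and 89.1% (68.0%). In F1KO they were 69.0% and 50.9% (53.0%), and in F1het 59.4% and 61.0% (56.4%). The median change over all genes was 0.16 in n4117, 0.09 in WT, −0.05 in N2 without the doubtful libraries, 0.03 in F1KO and −0.03 in F1het. Such a shift acts on the shares of genes up and genes down in opposite ways. The share over all genes is therefore only a rough base for each direction.

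The changes of single genes are given side by side. The change of asp-10 was 2.51 in n4117, 1.08 in WT, 1.81 in N2 without the doubtful libraries and 1.62 in F1KO on the log2 scale. For hrg-1 the changes were 2.12, 0.65, 0.44 and 1.52. Its response in gcp109 minus that in N2 was 1.43 (SE 0.51, adjusted p = 0.837), and 0.89 (SE 0.55, adjusted p = 1) without the doubtful libraries. In the same order, with N2 again without the doubtful libraries, the changes were 4.31, 4.49 and 4.31 for col-108, which was not tested in F1KO alone at 0.547 ± 0.195 to 1.62 ± 0.564 TPM, and −3.41, −1.99, −3.12 and −0.15 for dod-24. The gene sod-5 rose by 2.76 in gcp109 and had values of 0.99, 0.49, 0.68 and −0.06 in these strains. Changes of T23F2.4 were −0.19, −0.37, −0.15 and 0.53 against 2.38 in gcp109. With all N2 libraries the N2 values were 1.37 for asp-10, −0.10 for hrg-1, 3.16 for col-108, −2.69 for dod-24, 0.01 for sod-5 and 0.11 for T23F2.4. The sign for hrg-1 in N2 thus depended on the doubtful libraries. Neither sod-5 (difference from n4117 1.77, SE 0.48, adjusted p = 0.661) nor T23F2.4 (2.57, SE 0.87, adjusted p = 0.661) differed past the threshold. Against F1KO the response of sod-5 was higher in gcp109 (2.82, SE 0.44, adjusted p = 0.0156), and that of T23F2.4 did not pass (1.85, SE 0.72, adjusted p = 0.172).

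**Figure D5:**
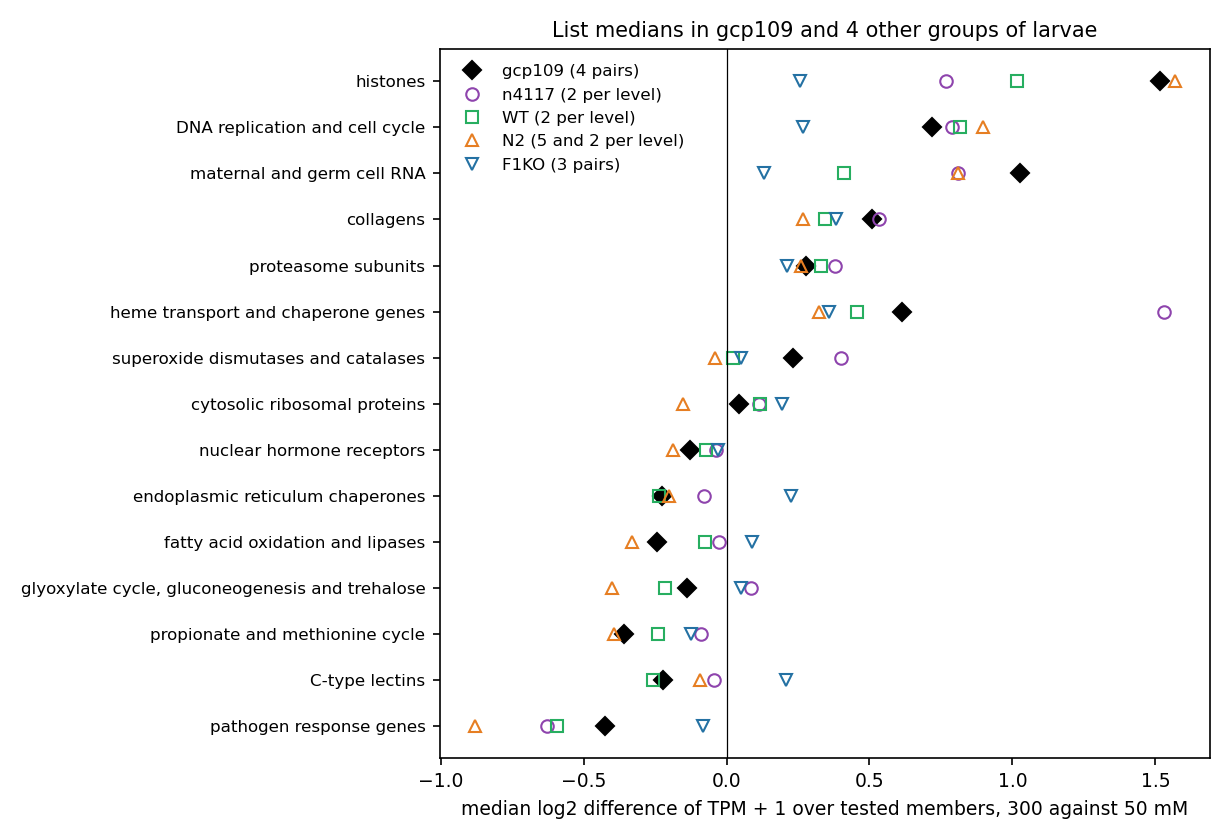
Median log2 difference of TPM + 1 between 300 and 50 mM over the tested members of 15 gene lists, for gcp109 (filled diamonds), n4117, WT, N2 without the 3 libraries in doubt and F1KO. The histone median was 1.52 in gcp109 and 0.26 in F1KO, and the medians of n4117, WT and N2 lay between 0.77 and 1.57.

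The F1KO larvae lack mir-85 but had heterozygous mothers. Against them 445 of 16100 responses were higher in gcp109 (2.76%) and 430 lower (2.67%), of which 7 and 13 were of genes under 1 TPM at both levels in F1KO. Without the replicate block the counts were 52 and 71. They fell to 80 higher and 63 lower without F1KO replicate 2, to 137 and 90 without F1KO replicate 1, and to 159 and 138, 213 and 158, and 250 and 193 without gcp109 replicates 1, 2 and 3. Without F1KO replicate 3 they were 354 and 756. Of the 873 genes up in gcp109, 240 had a higher response than in F1KO, and of the 892 down, 273 had a lower one. Histones differed in 30 of 71 members, all with the higher response in gcp109. Levels of his-24 went from 1526 ± 62.6 to 1256 ± 92.0 TPM in F1KO (n = 3 each), above all gcp109 libraries, and the responses differed by 2.22 (SE 0.19, adjusted p = 0.00326).

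Of pathogen response genes 10 had a lower and 2 a higher response in gcp109. Among the 10, 3 had a mean under 1 TPM at both levels in F1KO, where no fall could be seen, which leaves 7. Of C-type lectins 14 were lower and 2 higher and of fat breakdown genes 13 lower and 1 higher, all at 1 TPM or more in F1KO at 1 level at least. Levels of dod-24 went from 21.8 ± 6.39 to 20.4 ± 9.82 TPM in F1KO (difference of responses −3.71, SE 0.39, adjusted p = 0.00534). The BiP gene hsp-4 had a change of opposite sign in F1KO, from 37.98 ± 5.14 to 83.0 ± 23.4 TPM (difference −2.63, SE 0.23, adjusted p = 0.00351), and 9 of 24 endoplasmic reticulum chaperone genes had the lower response in gcp109. Levels of hmit-1.1 went from 2.85 ± 0.052 to 1.32 ± 0.739 TPM (difference 2.30, SE 0.27, adjusted p = 0.00605). Several of these genes started from other levels in the F1KO set. At 50 mM icl-1 stood at 83.8 ± 32.3 TPM in F1KO against 2195 ± 255 in gcp109, aqp-7 at 102 against 754 and hmit-1.2 at 0.807 against 47.2, and F55G11.2 was listed at 0 in F1KO at both levels. The F1het larvae were similar, with icl-1 at 91.0 ± 32.2 TPM, aqp-7 at 111, hmit-1.2 at 1.16 and F55G11.2 at 0 at 50 mM. Their changes were 1.41 for hsp-4, −1.02 for hmit-1.1, −0.67 for his-24 and −0.32 for dod-24, of the same sign as in F1KO. These traits were thus not particular to the larvae that lack mir-85. The heme genes hrg-1 (−0.19, SE 0.34, adjusted p = 0.772), hrg-3 (0.91, SE 0.37, adjusted p = 0.181) and asp-10 (0.47, SE 0.27, adjusted p = 0.325) did not differ past the threshold. Among collagens 9 had a higher and 1 a lower response than in F1KO. The response was higher in gcp109 for col-108 (4.32, SE 0.20, adjusted p = 0.000315), col-146 (2.33, SE 0.16, adjusted p = 0.00147) and col-159 (1.42, SE 0.23, adjusted p = 0.0173), and that of col-145 did not differ past the threshold (−0.03, SE 0.15, adjusted p = 0.936). Whether the set, the mothers' genotype or the level at 50 mM sets these differences cannot be told apart.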

How the data were processed

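The deposited table holds TPM that the authors computed per gene, and the submitters' processing notes name bedtools and the builds ce11 and WBcel235. The aligner, the counting program and its use of strand were not given in the sources used here, although the labels' protocols describe strand-specific libraries of RNA above 200 nucleotides, depleted of ribosomal RNA, from samples with an RNA integrity number above 8. TPM sums were 995077 to 998160 per gcp109 library. The members and gene lists were chosen with earlier results of these data known.

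Values were taken as log2(TPM + 1). Differences were fitted with limma 3.58.1 (R 4.3.3), with the replicate number as a block and a prior variance that follows the level. A gene entered the gcp109 fit if at least 4 libraries held 1 TPM or more. In each other fit the number of libraries asked for was the size of its smallest group. Tests were two-sided, adjusted after Benjamini and Hochberg, and a gene with an adjusted p under 0.05 is called up or down. Fold changes on this scale understate those of low genes. Same-numbered gcp109 libraries deviated together from their group means (r = 0.493 to 0.547, each highest with its own number), so the block was kept. F1KO numbers also paired (lowest r = 0.202), as did those of F1het (lowest r = 0.114). Those of N2 did not (lowest r = -0.013) and N2 was fitted without a block. Same-numbered libraries of n4117 (r = 0.17) and WT (r = 0.216) deviated together as well. These strains were still fitted without a block, because 2 pairs were held to be too few. The difference of 2 responses was tested as an interaction. On simulated data for 14216 genes the gcp109 fit recovered 92% of changes of 1 and 98% of changes of 2 on the log2 scale. The changes were placed only in genes with a mean over 2 on the log2(TPM + 1) scale. The simulated spread was not corrected for the terms of the fit and was below that of the data. These shares are therefore likely too high for the real libraries.

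N2 values stood 1 to 3 lines away from their gene names for 20686 lines of the table. They were moved back by leaving out 3 reporter lines and refiling mars-1, which raised their correlation with the other libraries from r = 0.593 to 0.986. N2 replicates 1, 3 and 5 at 300 mM were held in doubt, by a rule applied to N2 libraries only. The gcp109 library of replicate 1 at 300 mM, also high in sperm transcripts, stayed in the main fit. Of 48 value columns 38 were used and 0 matched no sample. Lists were described by counts and medians without a set test. Coordinates and transcript lengths come from Ensembl release 115 on WBcel235.

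Named genes were taken from the 20 largest rises and falls with a mean of at least 5 TPM at 1 level and no overlap, from up to 6 members per list with the smallest p, and from the heme genes, mop-25.1 and F49E12.8. Not all are named. Alternatives were no block, a pseudocount of 0.1, no filter, a filter of 5 TPM, rescaled libraries, protein-coding lines alone and leaving out each pair. A description of promoter motifs was not run.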

Additional observations from a re-analysis of the deposited data

Results flagged for a closer look

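In groups of 4 libraries, 21 of the 270 looked at (named genes and list sums at each level) had a library far from the other 3, by a test in which chance gives about 1 in 20. Replicate 4 was the one apart at 300 mM for hmit-1.1 (114.2 TPM), gpdh-1 (9.72), dod-19 (238.7), F55G11.8 (11.9), clec-265 (29.2) and pdi-2 (268.7), and at 50 mM for mcm-7 (6.65), plk-1 (10.04), rpl-11.1 (77.1) and clec-67 (58.3). It was also apart at 50 mM in the summed TPM of heme genes (113.7), intestine markers (7528) and neuron markers (2357). Replicate 1 at 300 mM stood apart for gst-20 (225.1), clx-1 (10.4), vitellogenins (160.2 summed TPM), sperm genes (127.0) and sperm markers (24.6), and at 50 mM for ges-1 (16.1). Replicate 3 stood apart at 300 mM for fmo-2 (56.3) and at 50 mM for endoplasmic reticulum chaperones (3150.0 summed TPM). The cause of these deviations was not tested.

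A difference between the responses of gcp109 and F1KO passed the test, with changes of opposite sign and at least 0.5 in F1KO, for 7 named genes. The response of gcp109 minus that of F1KO was 2.30 on the log2 scale for hmit-1.1, 1.61 for the small heat shock protein gene hsp-12.3, 2.07 for nlp-28, -2.63 for hsp-4, -2.07 for ech-9, -1.89 for ckb-2 and -1.73 for fat-5. These strains belong to different sets, and set and strain cannot be told apart.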

How the results depend on the processing

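The number of genes called in the NaCl response of gcp109 was 1765. It was 191 without the replicate block, 767 with no filter on low values, 2835 with protein-coding lines alone and 479 to 1844 with each pair left out in turn. It was 598 without replicates 1 and 4, a choice made after seeing the data. A pseudocount of 0.1, a filter of 5 TPM and rescaling kept it within 1.5 times (1665, 1629 and 2004). Which direction led depended on these, with 1162 up and 842 down after rescaling and 720 up and 909 down with the filter of 5 TPM. The cause of these differences was not tested, beyond the fewer libraries of the fits with pairs left out. Genes whose response differed from F1KO numbered 875, with 123 in the fit without a replicate block, 497 with no filter and 143 to 1110 with a replicate left out. For n4117 the count of 0 became 1 without the replicate block, 3 with no filter and 0 to 83 with a replicate left out. For N2 it became 1 with no filter, 0 to 2 with a replicate left out and 1 without the libraries in doubt, and stayed 0 without the replicate block. Among the 89 named genes 45 calls were lost without the block, 19 with no filter and 3 to 27 with a pair left out, 1 with rescaling (fat-5) and 1 with a pseudocount of 0.1. The sign of 1 gene reversed, F49E12.8 without replicates 1 and 4 (log2 0.17, not called in either fit). Rescaling moved the median difference of responses from n4117 over all genes from -0.16 to 0.00. The planned description of promoter motifs was not run. Depth is unknown with TPM, so values near 1 TPM carry an unknown counting error.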
